A study of Mus musculus with 4 samples.

Results

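Genes that build sterols and fatty acids were followed in Paneth cells, which secrete antimicrobial proteins from the crypt bottoms of the small intestine, with and without gut microbes. The set held 32 genes chosen by name for their place in these pathways: 18 of sterol synthesis and transport, 5 of the SREBP control circuit and 9 of fatty acid synthesis. A probe set on the array named 31 of them alone, out of 18193 genes so named, and where several did, the brightest by mean over the 4 arrays was used. Acat2, a thiolase at the entry of the mevalonate pathway, had no such probe set and was not analysed here. Of the 31, 30 had a mean signal above 113.9, the median of all probe sets, and entered the test, and the exception was Fdps.

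Both groups were male NMRI mice of 8 weeks, and their Paneth cells were cut by laser capture from frozen small intestine. The germfree mice carried no microbes. The conventionalized mice had been germfree until they received intestinal microbes of a conventionally raised mouse for 10 days. Each group was 1 pool of RNA from 3 mice, amplified in duplicate from 10 ng and read on Affymetrix Mouse430_2 arrays, 1 per amplification. Every p-value below therefore measures the spread between repeat amplifications of the same RNA, not between mice. The number of arrays limits the precision, and an exact permutation test of a single gene could not go below p = 0.333 with 2 arrays against 2.

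Cells build cholesterol from acetyl-CoA through mevalonate, isoprenoids, squalene and lanosterol, and they build fatty acids from the same acetyl-CoA by way of malonyl-CoA. Both routes are controlled by the sterol regulatory element-binding proteins (SREBPs), membrane-bound transcription factors that Scap escorts from the endoplasmic reticulum for cleavage when sterols are scarce and that Insig proteins hold back when sterols are plentiful. SREBP-2 acts mainly on sterol genes and SREBP-1c mainly on fatty acid genes. The small intestine is a major site of cholesterol synthesis in rodents.

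Arrays differed within groups as well as between them. Across the 22491 probe sets tested, which are not independent replicates, duplicates correlated at 0.869 in the germfree and 0.779 in the conventionalized group. Conventionalized array 2 stood apart, with correlations of 0.754 to 0.779 to the other 3 arrays, while germfree array 2 and conventionalized array 1 correlated at 0.890. Values without conventionalized array 2 are therefore given below for the branch medians and for some genes, not for all. Washing station 1 held both germfree arrays and station 2 both conventionalized arrays, and the effects of station and colonization cannot be told apart. The 5' control probe set for beta-actin read 213 and 250 in germfree and 137 and 96.1 in conventionalized cells, while the 5' control for Gapdh overlapped between groups (373 and 355 against 248 and 488). The middle control for Gapdh lay lower without overlap (537 and 517 against 343 and 351), and that for beta-actin overlapped (784 and 1102 against 770 and 1091). The part of these differences in the results was not tested.

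The comparison of the pools asked how colonization altered these pathways in Paneth cells. Signals of several sterol genes, Sc5d and Hmgcs1 foremost, and of the regulator Insig1 lay lower in conventionalized cells, whereas Pmvk, Mvk and Scd1 lay higher. Of 9 fatty acid genes 5 overlapped between groups, 3 lay lower without overlap and 1 higher. No member passed the test. Limma called 0 of the 30 members tested at a Benjamini-Hochberg adjusted p under 0.05, where 0.355% of the 12113 genes tested were called. None of the 52 member probe sets tested was called, where 0.333% of all 22491 were, 0.213% lower and 0.120% higher. At an unadjusted p under 0.05 there was 1 member, Sc5d, which lay lower, beside 3.91% of all genes tested lower and 5.94% in either direction. In 11 of 31 members (35.5%) both conventionalized arrays lay below both germfree arrays, as was so for 15.4% of all 18193 genes. In 4 members, Mvk, Pmvk, Fdps and Scd1, both lay above, against 16.2% of all genes. The members share arrays and controllers, are not independent and were chosen with earlier results of these data known, so these shares are a description.

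**Figure D1:**
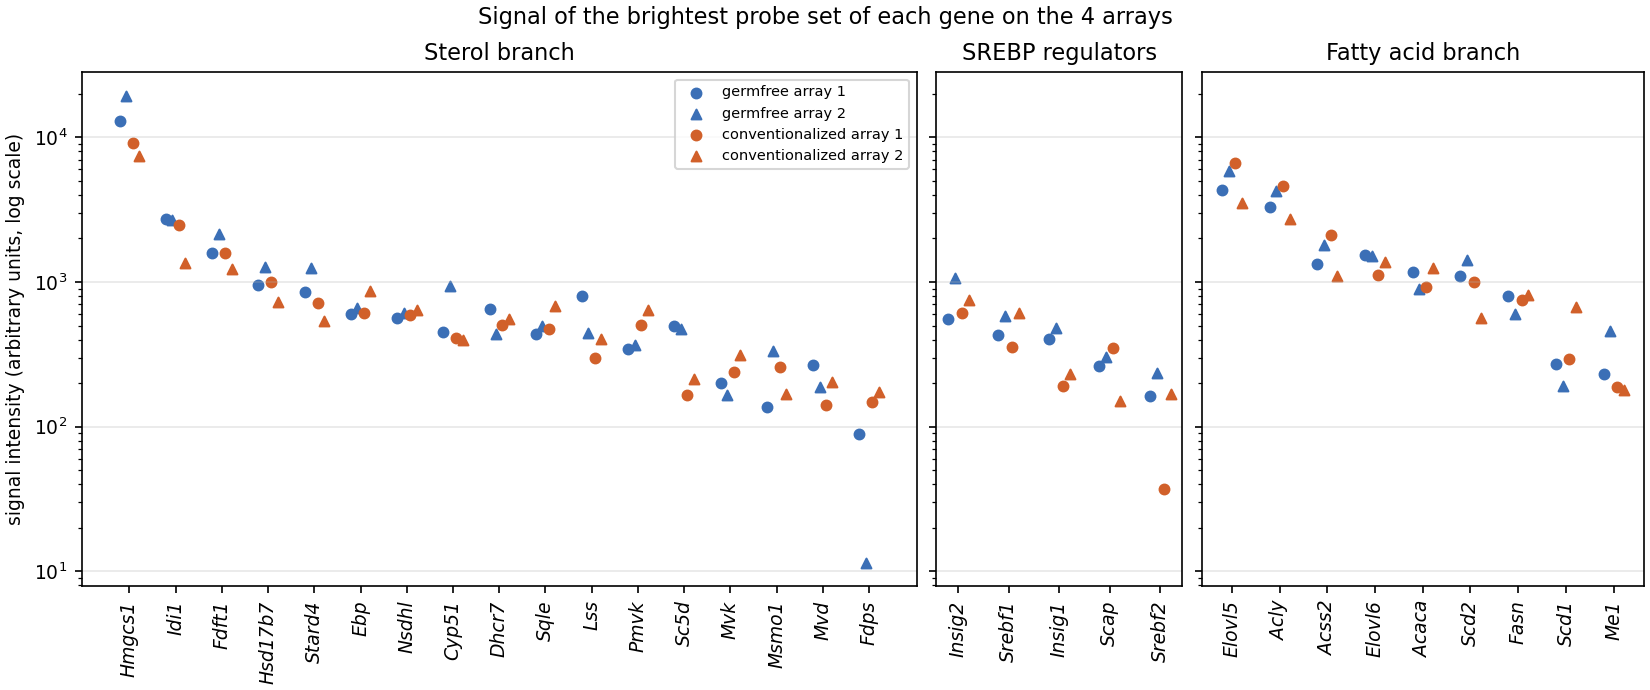
Signal intensity (log scale, arbitrary units as deposited) of the brightest probe set of each of the 31 genes on the 4 arrays, in panels for the sterol branch, the SREBP regulators and the fatty acid branch. Blue marks are germfree and orange marks conventionalized arrays. Sc5d and Insig1 show orange marks below blue ones, and Elovl5 and Acly show the groups intermixed.

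Hmgcs1, which makes HMG-CoA from acetoacetyl-CoA and is a classical SREBP-2 target, had the brightest signals of the set. It read 12969 and 19406 on the germfree arrays and 9088 and 7468 on the conventionalized arrays. Both conventionalized values lay below both germfree values. The log2 difference was -0.94 ± 0.60 (SE, 2 arrays per group; limma adjusted p = 0.999), a signal 1.92-fold lower, and -0.80 without conventionalized array 2. With quantile normalization it came to -1.39 and was called (limma adjusted p = 0.0353). The standard errors here are those of probe sets of like signal, because limma estimated the prior degrees of freedom as infinite.

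All 5 probe sets of Hmgcs1 lay lower in conventionalized cells with no overlap between groups, from -0.94 to -1.51. The dimmest, under the signal limit and not tested, read 53.4 and 43.3 in germfree and 7.1 and 7.3 in conventionalized cells. The third brightest read 974 and 1400 in germfree and 494 and 304 in conventionalized cells (-1.51 ± 0.44, limma adjusted p = 0.0965). The second brightest read 983 and 1462 against 489 and 377 (-1.42 ± 0.43, limma adjusted p = 0.164). Neither passed, and both were singled out after their values were seen. The 4 brightest of the 5 were designed on 1 source sequence, so they do not count as separate measurements. Of all probe sets tested, 15.3% lay lower without overlap, and of the 52 tested for members 22 did.

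Promoter sequences are shown for Hmgcs1, Sc5d and Insig1, the members without overlap that lay lowest at their brightest probe set. RefSeq windows of 300 bases (250 before and 50 after a transcript start, GRCm38.p6) were matched for 26 of the 32 genes. The motifs searched on both strands were TCACNCCAC (a sterol regulatory element), CCAAT (the NF-Y box) and GGGCGG (the GC box bound by Sp1), the latter both known cofactor sites of SREBP targets. Overlapping matches were counted separately. The 250 bases before the start of Hmgcs1 (chr13:119690101-119690350, plus strand), Sc5d (chr9:42264301-42264550, minus strand) and Insig1 (chr5:28071162-28071411, plus strand) read as follows, 5′ to 3′ on the strand of the gene, with matches to any of the 3 motifs, on either strand, in capitals. A GC box of Sc5d that begins 3 bases before the start runs past the printed bases and is left in lower case.
Hmgcs1: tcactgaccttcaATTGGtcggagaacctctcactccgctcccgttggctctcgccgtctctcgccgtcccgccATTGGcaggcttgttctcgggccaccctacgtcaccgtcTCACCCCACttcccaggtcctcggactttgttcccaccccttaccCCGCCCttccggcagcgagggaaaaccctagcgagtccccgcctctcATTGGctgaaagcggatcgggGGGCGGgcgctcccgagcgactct
Sc5d: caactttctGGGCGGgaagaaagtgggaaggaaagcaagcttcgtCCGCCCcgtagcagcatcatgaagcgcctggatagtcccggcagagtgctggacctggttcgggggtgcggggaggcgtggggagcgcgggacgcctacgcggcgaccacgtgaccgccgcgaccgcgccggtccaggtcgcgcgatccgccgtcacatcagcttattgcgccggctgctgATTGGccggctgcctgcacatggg
Insig1: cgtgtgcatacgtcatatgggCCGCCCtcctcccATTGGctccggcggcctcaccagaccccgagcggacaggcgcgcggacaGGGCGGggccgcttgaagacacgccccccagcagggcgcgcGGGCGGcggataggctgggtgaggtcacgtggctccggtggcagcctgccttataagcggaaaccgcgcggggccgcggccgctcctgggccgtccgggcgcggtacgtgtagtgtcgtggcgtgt

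Among the 26 member genes with a promoter, only Hmgcs1 matched the sterol element pattern TCACNCCAC. The match, TCACCCCAC, begins 137 bases before the start of Hmgcs1. NF-Y boxes begin 237, 176 and 45 bases before it, all on the other strand. This element was found in 1 of 26 member genes and in 1.44% of the 27025 genes with a promoter in the table. A CCAAT box was found in 13 of 14 sterol genes (92.9%), 4 of 5 regulators (80%) and 5 of 7 fatty acid genes (71.4%), against 41.1% of all genes. GC boxes were found in 13 of 14 sterol genes, 5 of 5 regulators and 3 of 7 fatty acid genes (42.9%), against 38.2% of all genes. A gene was counted if any of its promoters matched, and the 5 regulators had 10 promoters. By promoter, CCAAT was in 76.5% of sterol, 50% of regulator and 62.5% of fatty acid promoters, against 37.4% of all promoters. For GC boxes these shares were 82.4%, 80% and 37.5%, against 35.7%. These are letter matches in a short window, not measured binding, and other spellings of the motifs were not searched.

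The next mevalonate genes lay on the other side of 0 or overlapped. Mvk, mevalonate kinase, read 199 and 166 in germfree and 237 and 315 in conventionalized cells. Pmvk, which adds the next phosphate, read 346 and 369 against 502 and 642. Both were higher in conventionalized cells without overlap, by 0.52 ± 0.60 and 0.62 ± 0.47 on the log2 scale (limma adjusted p = 0.999 for each). With all its probe sets averaged, Mvk differed by -0.076. Mvd, the decarboxylase that forms isopentenyl diphosphate, read 266 and 188 against 142 and 205, and its groups overlapped.

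Idi1, the isomerase of isopentenyl diphosphate, read 2733 and 2687 in germfree and 2460 and 1359 in conventionalized cells. It lay lower without overlap, with a log2 difference of -0.56 that was -0.14 without conventionalized array 2 and -0.98 without conventionalized array 1. Fdps, farnesyl diphosphate synthase, read 89.0 and 11.5 against 147 and 174. Its mean lay under the signal limit, so it was not tested. Both conventionalized values lay above both germfree values, and the germfree duplicates differed by 1.48 on the log2 scale. A dimmer Fdps probe set, also not tested, read 47.1 and 6.9 against 13.2 and 35.4, and its groups overlapped.

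The squalene steps divided by gene. Fdft1, squalene synthase, read 1597.2 and 2161 in germfree and 1596.6 and 1228 in conventionalized cells, so the groups all but touched. Lss, which closes the ring to lanosterol, read 804 and 443 against 298 and 406, a log2 difference of -0.73 ± 0.47. Sqle, squalene epoxidase, read 440 and 495 against 476 and 680. Fdft1 and Lss lay lower without overlap and Sqle overlapped, and none of the 3 passed (limma adjusted p = 0.999 for each). Lss differed by -0.32 without germfree array 1 and by -1.14 without germfree array 2. Fdft1 differed by -0.40, and by -0.19 and -0.21 without array 2 of the germfree and the conventionalized group.

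Sc5d, the desaturase that makes 7-dehydrocholesterol, had the lowest difference of the set. It read 497 and 473 on the germfree and 165 and 213 on the conventionalized arrays. Duplicates lay close together and the groups well apart. The log2 difference was -1.24 ± 0.53 (limma adjusted p = 0.754), a signal 2.36-fold lower, and it ranged from -0.59 to -1.39 over 14 alternatives with no call. The value nearest 0 came from averaging its 3 probe sets, of which the dimmest, under the signal limit, read 37.8 and 45.1 against 58.7 and 85.3.

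Most other members that turn lanosterol into cholesterol overlapped between groups. Cyp51, lanosterol demethylase, read 452 and 938 in germfree and 408 and 395 in conventionalized cells (-0.66 ± 0.46 on the log2 scale), and a second tested probe set differed by 0.02. The brightest lay lower without overlap, by -1.16 without germfree array 1 and -0.16 without germfree array 2, and the average of all Cyp51 probe sets differed by 0.23. Dhcr7, the last reductase of the pathway, read 646 and 436 against 502 and 551. Nsdhl, a dehydrogenase of C4 demethylation, read 566 and 607 against 590 and 637. Ebp, the sterol isomerase, read 597 and 660 against 608 and 860. In Dhcr7, Nsdhl and Ebp the groups overlapped and the differences were -0.01, 0.06 and 0.20.

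Msmo1, the C4-methyl oxidase, read 138 and 333 in germfree and 260 and 168 in conventionalized cells, with duplicates further apart than groups. Hsd17b7, the 3-keto reductase, read 956 and 1265 against 993 and 731. Its 4 probe sets ran from -1.26 to 0.18, so its direction depended on the probe set.

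Stard4, a sterol carrier between membranes, read 857 and 1250 in germfree and 711 and 533 in conventionalized cells. The groups did not overlap, and the log2 difference was -0.72 ± 0.43 (limma adjusted p = 0.999), or -0.46 without germfree array 2 and -0.52 without conventionalized array 2. The second brightest probe set read 799 and 1075 against 550 and 137 (-1.61 ± 0.46, limma adjusted p = 0.0854), the lowest adjusted p of any member probe set. It was singled out after its values were seen and came to -0.72 without conventionalized array 2. The third Stard4 probe set differed by 0.04.

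**Figure D2:**
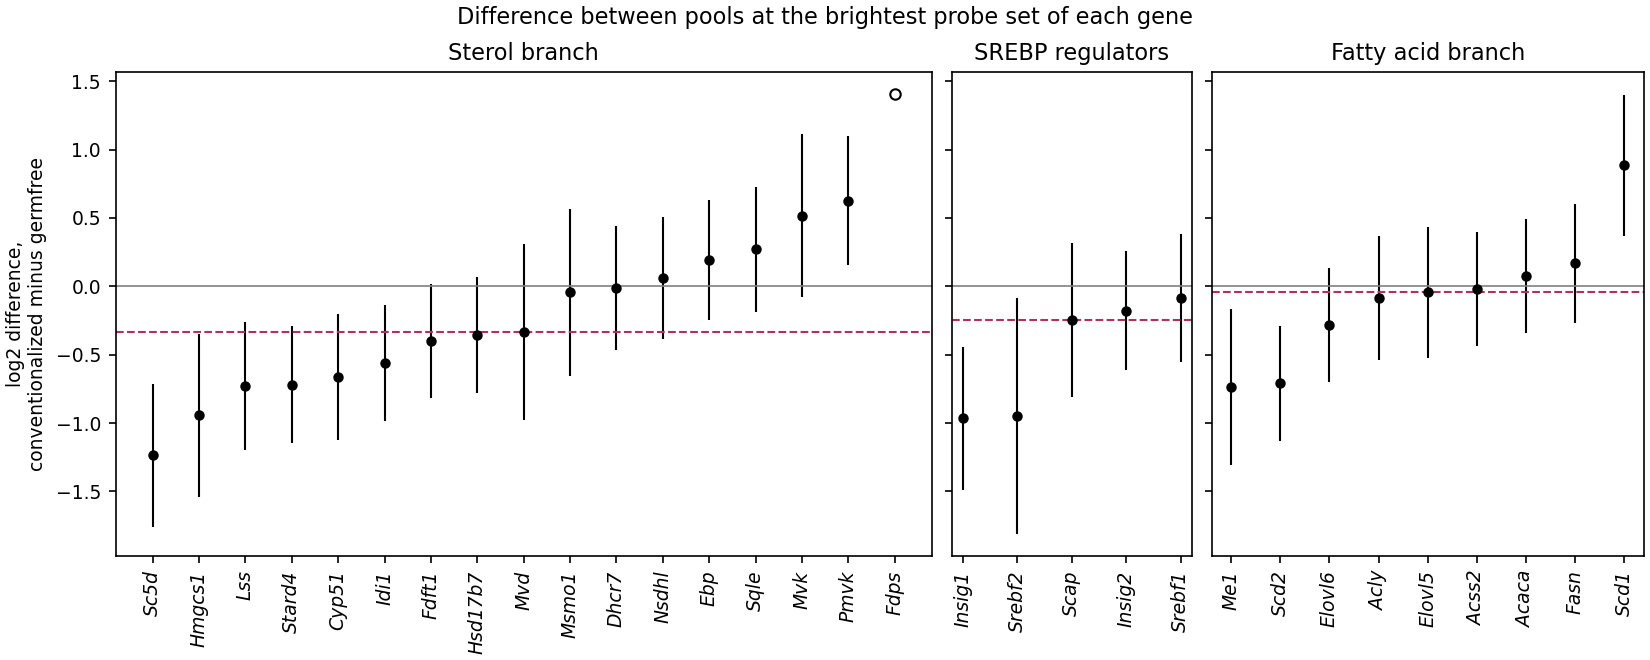
Log2 difference of each gene at its brightest probe set, conventionalized minus germfree, on the log2(signal + 32) scale. Bars are limma standard errors (2 arrays per group), dashed lines the median of each panel, and the open circle Fdps, which was not tested. The medians are -0.33 for the sterol branch, -0.25 for the regulators and -0.04 for the fatty acid branch.

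Among the regulators, Insig1 stood lowest. Insig1 retains Scap when sterols are plentiful and is itself an SREBP target. It read 404 and 480 in germfree and 191 and 231 in conventionalized cells. The groups did not overlap and lay further apart than the duplicates. The log2 difference was -0.96 ± 0.52 (limma adjusted p = 0.999), against 0.23 and 0.24 between duplicates. It was -1.08 without conventionalized array 2, and over 14 alternatives it ran from -0.75 to -1.08 with no call.

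The other regulators overlapped between groups. Insig2, the relative of Insig1 that is not driven by SREBPs in the same way, read 554 and 1068 in germfree and 613 and 751 in conventionalized cells. Srebf2, which encodes SREBP-2, read 162 and 234 against 37.2 and 169. Its conventionalized duplicates differed by 1.54 on the log2 scale, more than the difference between groups (-0.95 ± 0.86). That difference was -1.72 without conventionalized array 2 and -0.18 without conventionalized array 1. Srebf1, the gene of SREBP-1, read 427 and 582 against 356 and 613. Scap read 263 and 302 against 352 and 151, the conventionalized duplicates again lying further apart than the groups.

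In the fatty acid branch, the enzymes that supply and use acetyl-CoA overlapped between groups. Acly, which releases cytosolic acetyl-CoA from citrate, read 3309 and 4252 in germfree and 4607 and 2717 in conventionalized cells. Acss2, which makes acetyl-CoA from acetate, read 1333 and 1796 against 2100 and 1103. Acaca, the carboxylase that makes malonyl-CoA, read 1167 and 887 against 929 and 1242. Fasn, fatty acid synthase, read 802 and 603 against 755 and 817. In these 4 genes the differences lay between -0.08 and 0.17, and each was smaller than its standard error of 0.42 to 0.45.

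Genes that finish the fatty acid were less uniform. Scd1, a stearoyl-CoA desaturase, read 269 and 190 in germfree and 294 and 666 in conventionalized cells, 0.88 ± 0.52 higher on the log2 scale but 0.34 without conventionalized array 2 and 1.43 without conventionalized array 1. Its relative Scd2 read 1103 and 1409 against 996 and 563, a difference of -0.71 ± 0.42 that was -0.32 and -1.10 without the same arrays. At their brightest probe sets the desaturases thus lay on opposite sides of 0 without overlap, and neither passed (limma adjusted p = 0.999 for each). A second tested probe set of Scd2 differed by 0.70. The other probe set of Scd1, under the signal limit and not tested, differed by -0.13 and its groups overlapped.

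Elovl6, which lengthens palmitate, read 1541 and 1508 in germfree and 1125 and 1381 in conventionalized cells. All 3 of its probe sets were lower without overlap, though the dimmest lay under the signal limit and was not tested. The difference at the brightest was -0.28 ± 0.42. Elovl5, an elongase of polyunsaturated fatty acids, read 4293 and 5800 against 6679 and 3506, with groups intermixed. Me1, malic enzyme, which supplies NADPH for synthesis, read 232 and 461 against 189 and 180. Both Me1 probe sets were lower without overlap, by -0.74 ± 0.57 and -0.65 ± 0.57, and neither passed (limma adjusted p = 0.999). The first was -1.19 without germfree array 1 and -0.28 without germfree array 2.

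**Figure D3:**
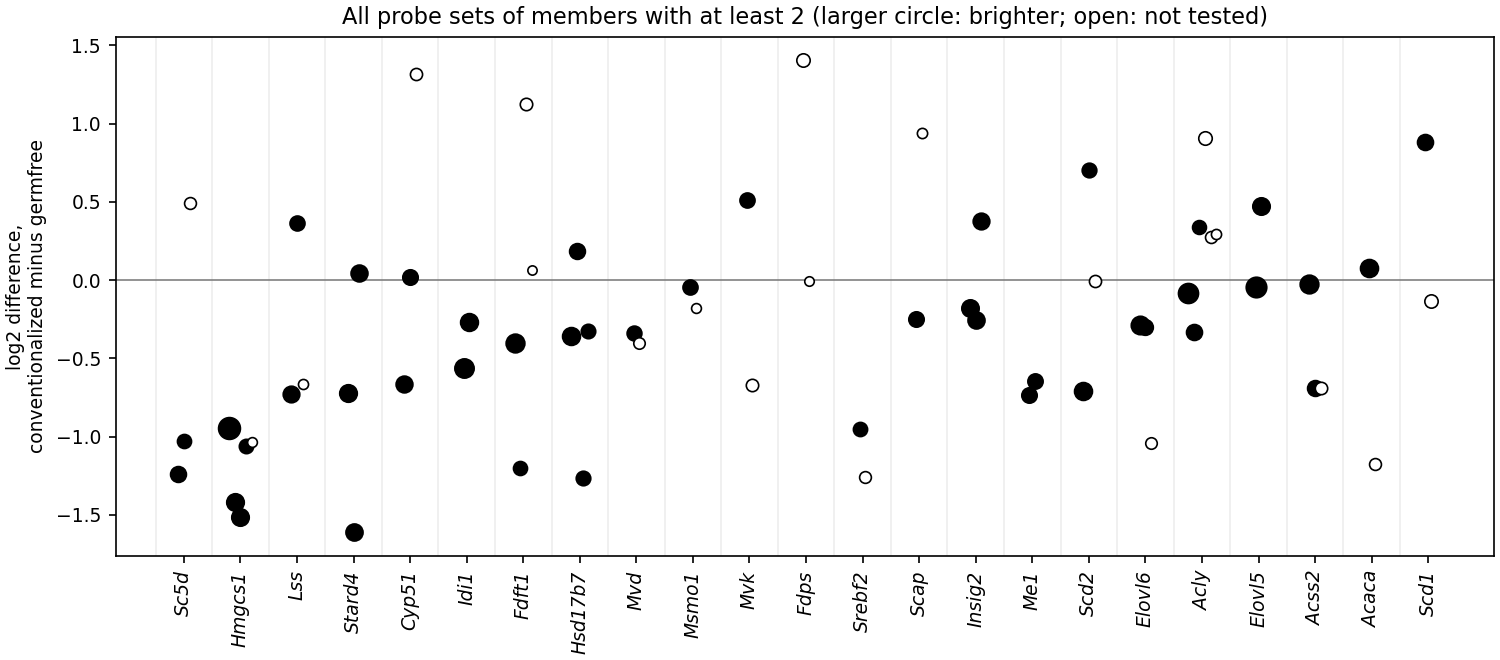
Log2 difference, conventionalized minus germfree, of every probe set of the genes with at least 2 probe sets, ordered by branch and then by difference. Larger circles are brighter, and open circles lie under the signal limit and were not tested. The circles of Hmgcs1 lie between -1.51 and -0.94, whereas those of Scd2 lie on both sides of 0.

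Probe sets of one gene did not always share a sign. Of 15 members with at least 2 tested probe sets, 8 had tested probe sets on both sides of 0: Lss, Cyp51, Hsd17b7, Stard4, Insig2, Acly, Scd2 and Elovl5. Hmgcs1, Idi1, Fdft1, Sc5d, Elovl6, Acss2 and Me1 had all of theirs below 0. In 6 of 31 members the difference between groups was larger than the gap within either pair of duplicates, as in 19.3% of all genes: Hmgcs1, Sc5d, Stard4 and Insig1 lower, Mvk and Pmvk higher.

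Set side by side, the branches did not separate beyond the spread between arrays. Of 17 sterol genes 11 differed below 0, 7 lay lower without overlap (41.2%, against 15.4% of all genes) and 3 higher, with a median log2 difference of -0.33. Of 9 fatty acid genes 6 differed below 0, 3 lay lower without overlap (33.3%) and 1 higher, with a median of -0.04. All 5 regulators differed below 0, Insig1 alone without overlap, with a median of -0.25. The median of all 18193 genes was 0.02, and 48.3% of them differed below 0.

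The median of the sterol branch was -0.29 relative to that of the fatty acid branch. Taken for each pair of a conventionalized and a germfree array, however, this difference was 0.08, 0.05, -0.44 and 0.52, so its sign depended on the pair. The sterol median itself was between -0.33 and -0.0005 in the 4 pairs, and the fatty acid median between -0.64 and 0.11. Measured against each gene's own mean, the sterol minus fatty acid median was 0.07 and -0.20 on the germfree arrays and -0.10 and 0.24 on the conventionalized arrays, so the groups overlapped.

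Single arrays moved these medians. The sterol median was -0.16 without germfree array 2 and -0.14 without conventionalized array 2. The fatty acid median was -0.46 without conventionalized array 1, -0.26 without germfree array 1 and 0.11 without conventionalized array 2. That of the regulators was -0.63 without germfree array 1, -0.45 without conventionalized array 2 and -0.16 without germfree array 2. The sterol minus fatty acid difference was 0.14 without conventionalized array 1, -0.06 without germfree array 1 and -0.13 without germfree array 2. With conventionalized array 2 left out, 11 of 17 sterol, 4 of 9 fatty acid and 4 of 5 regulator genes differed below 0.

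**Figure D4:**
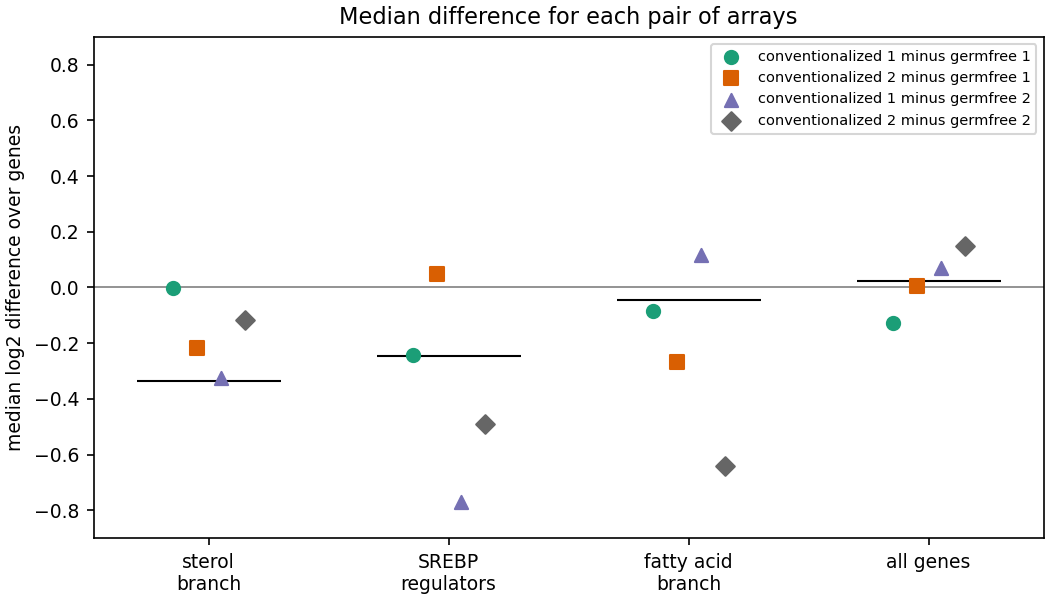
Median log2 difference over the genes of each branch, and over all genes, for each of the 4 pairs of a conventionalized and a germfree array (coloured marks) and for the group means (black lines). The marks of the fatty acid branch run from -0.64 to 0.11, across those of the sterol branch, from -0.33 to -0.0005.

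Other genes of these pathways were taken from 4 lists. Of 55 listed, 45 had a probe set and 41 were tested. Limma called 0 of them, where 0.355% of all genes tested were called. At an unadjusted p under 0.05 (limma) there were 2, beside 5.94% of all genes tested. In 25 of 45 (55.6%) the difference was below 0, as in 48.3% of all genes, and their median was -0.10. Npc1l1, the transporter that takes up dietary cholesterol at the brush border, read 3285 and 4905 in germfree and 1294 and 2298 in conventionalized cells (-1.20 ± 0.43, limma adjusted p = 0.400), lower without overlap. Among 9 genes of sterol uptake, efflux and storage 7 differed below 0, with a median of -0.30. Tm7sf2, a sterol reductase beside Cyp51, differed by -1.03 ± 0.76 and by -0.34 without conventionalized array 2.

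Dgat1, which completes triglycerides, read 3050 and 6946 in germfree and 2240 and 2648 in conventionalized cells (-0.91 ± 0.45, limma adjusted p = 0.944). Idh1, a cytosolic source of NADPH, read 2172 and 3378 against 1230 and 1896 (-0.81 ± 0.42, limma adjusted p = 0.989). Both were lower without overlap and neither passed. Without germfree array 2 they differed by -0.32 and -0.50, and without germfree array 1 Dgat1 differed by -1.5. The 26 further fatty acid genes measured had a median of 0.06, with 15 above 0.

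The captured material carried markers of Paneth cells and of neighbouring cells, and these differed between groups too. In bulk RNA, fewer cells of a type and less RNA per cell cannot be told apart. All 10 Paneth markers measured differed above 0 (median 1.84), and Mptx1 was called higher. Summed Paneth signal was 66544 and 147695 in germfree and 282654 and 644409 in conventionalized cells. Of 12 absorptive enterocyte markers 10 differed below 0 (median -0.51), and Apoc3 was called lower, while the summed signal overlapped (106774 and 194142 against 119860 and 273880). Fibroblast and smooth muscle markers differed below 0 in 6 of 9 (median -0.32), and their summed signal of 6866 and 6425 in germfree lay above the 4194 and 5245 in conventionalized cells.

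Secretory and immune cell markers differed as well. Goblet cell markers summed to 49808 and 90986 in germfree and 108227 and 199725 in conventionalized cells, higher without overlap (median 0.53). Zg16 alone read 19257 and 43750 against 57301 and 145448. Of the 8 goblet markers 6 differed above 0 and 2 below, and Clca1 lay lower without overlap (-1.29 ± 0.42, limma adjusted p = 0.237). Enteroendocrine markers summed to 5061 and 6694 against 4421 and 3634, lower without overlap (median -0.33). Plasma and B cell markers summed to 2181 and 2390 against 7768 and 9623, higher without overlap. Igha, the heavy chain of immunoglobulin A, made up most of the conventionalized sums, at 994 and 1644 against 6273 and 7988. Igha was called higher (2.44 ± 0.44, limma adjusted p = 5.55e-05). Of 6 plasma and B cell markers measured 3 passed the signal limit, and 1 of the 6 differed below 0. Crypt base stem cell and exocrine pancreas sums overlapped between groups.

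Adipocytes also express many of these genes. Of 5 adipocyte markers measured, 2 passed the signal limit. Adipoq did not, and read from 3.8 to 129. Fabp4 did, and read 221 and 522 in germfree and 159 and 134 in conventionalized cells, lower without overlap (-1.07 ± 0.59, limma adjusted p = 0.999). The summed signal of the 5 overlapped between groups, at 521 and 855 in germfree and 313 and 647 in conventionalized cells. The part of cell makeup in the sterol and fatty acid gene differences was not tested.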

How the data were processed

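Total RNA of laser-captured Paneth cells was measured on 4 arrays. Per the labels, each is a separately amplified aliquot of 1 of 2 pools. The authors deposited 1 signal intensity per probe set on a linear scale. The 2% trimmed mean was 250.0 on all 4 arrays, so the values were taken as scaled and left so. The software is not given in the sources used here. Of 45101 probe sets, 64 were controls. The annotation of 2016 named 1 gene for 34945 probe sets, several for 932 and none for 9211. All 31 measured members matched the gene table (GRCm38.p6) by identifier.

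Intensities became log2(intensity + 32), which understates the change of dim genes. The 22491 probe sets with a mean above 113.9 entered a limma model (version 3.58.1, R 4.3.3, eBayes with trend), with p-values adjusted over all of them (Benjamini-Hochberg, threshold 0.05). The fit was tested on simulated data. Branch medians use all 31 members, tested or not, and carry no test. Named genes are the members, any called related gene, the 4 tested related genes with the largest difference and at most 2 genes of each marker list. Members, lists and tests were chosen with earlier results of these data known. Deviations of same-numbered arrays were only weakly correlated, and negatively (-0.13 across probe sets), so the numbers were not taken as pairs. Alternatives were pseudocounts, filters, scalings, variance trend, blocks, averaged probe sets and leaving out each array.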

Additional observations from a re-analysis of the deposited data

How the results depend on the processing

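Precision is limited by 2 arrays per group from 1 pool each, and dim genes such as Fdps lie near background. The 75 probe sets called became 33 with quantile normalization, 22 with each array centred on its median, 0 without the variance trend (975 with an unadjusted p under 0.05) and 30 with the replicate block; leaving out 1 array gave 41 to 213. The numbers name aliquots only. A crossed replicate block, added after seeing the data, gave 228. The split of higher and lower calls was 27 and 48, 14 and 19 with quantile normalization, 3 and 19 with median centring, 22 and 24 without germfree replicate 1, 34 and 7 without germfree replicate 2, and 32 and 181 with conventionalized replicate 1 left out. With conventionalized replicate 2 left out it was 14 and 33. Median centring moved the median of all genes from 0.02 to -0.08.

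Members called stayed at 0 in all of these but quantile normalization, with 1 (Hmgcs1), and related genes called stayed at 0 in all. The 0 called without the variance trend went with 1 member at an unadjusted p under 0.05. Outside the brightest probe sets, the third brightest of Hmgcs1 and the second brightest of Stard4 were called in the brightest 25% of probe sets (limma adjusted p = 0.0282 and 0.0139), without conventionalized replicate 1 (0.0364 and 0.00116) and under the crossed block, which also called the second brightest of Hmgcs1 (0.0126).

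The sterol median ran from -0.32 to -0.14 with 1 array left out and was -0.10 with all probe sets of a gene averaged; it kept its sign in 11 alternatives. The ranges with 1 array left out were -0.63 to -0.16 for the regulators, -0.46 to 0.11 for the fatty acid branch and -0.25 to 0.14 for sterol minus fatty acid.

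The differences of some members changed sign. With averaged probe sets these were Cyp51 (0.23), Mvk (-0.076), Scap (0.35), Acaca (-0.55), Acly (0.23) and Elovl5 (0.22). Median centring turned Nsdhl (-0.042) and Acaca (-0.029), and quantile normalization Srebf1 (0.025) and Acss2 (0.011). With 1 array left out the ranges were -0.28 to 0.26 for Dhcr7, -0.60 to 0.51 for Msmo1, -0.044 to 0.44 for Ebp, -0.63 to 0.28 for Insig2, -0.45 to 0.28 for Srebf1, -0.78 to 0.29 for Scap, -0.030 to 0.36 for Fasn, -0.13 to 0.28 for Acaca, -0.46 to 0.29 for Acly, -0.51 to 0.42 for Elovl5 and -0.48 to 0.43 for Acss2. The cause was not tested.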
